A study of Homo sapiens with 18 samples.

Results

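The RNA levels of 55 genes of replication fork protection, the DNA damage checkpoint, homologous recombination and the Fanconi pathway were followed in U2OS cells treated with cytarabine. The genes were taken by symbol from a list of pathway members, which holds no measured value but was drawn up with earlier results of these data known, and all 55 were found among the 25296 genes of the deposited count table. All 55 also passed the filter on low counts, with at least 63 counts in every library. They fall into 5 roles: 15 genes of ATR and ATM signalling, 15 of end resection and homologous recombination, 15 of the Fanconi pathway and crosslink nucleases, 7 fork remodelers and helicases, and 3 break mediators and scaffolds.

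U2OS cells are an established line from a human osteosarcoma. The RNA of 18 libraries was sequenced, in 6 groups of 3 biological replicates: lines carrying the empty retroviral vector MigR1 (EV), overexpressed wild-type DNMT3A (WT) or overexpressed mutant DNMT3A (MUT), each without treatment and after 10 µM cytarabine for 24 h. The mutation is R882H in the sample labels but R882C in the series text, so the line is called mutant, and the untreated cells, so named in the labels, are a vehicle control in the series text. The labels name no more than 1 derived line for each genotype and do not say whether it is a clone, so line and genotype cannot be told apart. The replicates are described as biological triplicates of plated cells, so p-values measure the spread between such cultures.

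Cytarabine, an analogue of cytidine, enters DNA during synthesis and slows or stalls replication forks. Stalled forks expose single-stranded DNA, which recruits the kinase ATR through its partner ATRIP. The RAD9A-RAD1-HUS1 clamp, loaded by RAD17, and TOPBP1 or ETAA1 activate ATR, and CLSPN, TIMELESS and TIPIN pass the signal to the kinase CHEK1. Forks can be reversed by SMARCAL1, ZRANB3 and HLTF, and the reversed arms are shielded by the BRCA and Fanconi proteins from nucleases such as MRE11, EXO1 and DNA2. Many of these genes are transcribed mostly in dividing cells, and a promoter element bound by E2F factors is a well-known feature of such genes.

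The 200 bases before the listed start are shown for 5 members. These are a fork remodeler that rose (HLTF), one that fell (ZRANB3), the effector kinase (CHEK1), and the Fanconi core genes FANCA and FANCC. Both Fanconi genes were lower in untreated MUT than in EV. The FANCC call was lost without untreated EV replicate 1 or 2 or untreated MUT replicate 1 or 2. The bases are written 5′ to 3′ on the gene's strand, from RefSeq on GRCh38.p14, with any match to the E2F letters in capitals. The listed starts are those of the RefSeq table and can lie inside the span of the gene in the deposited table, as for FANCC and CHEK1.
HLTF (chr3:149086534-149086733, minus strand): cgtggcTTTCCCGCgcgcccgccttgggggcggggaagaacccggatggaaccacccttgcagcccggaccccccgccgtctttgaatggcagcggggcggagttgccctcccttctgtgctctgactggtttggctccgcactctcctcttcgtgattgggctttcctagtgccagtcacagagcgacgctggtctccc
ZRANB3 (chr2:135531219-135531418, minus strand): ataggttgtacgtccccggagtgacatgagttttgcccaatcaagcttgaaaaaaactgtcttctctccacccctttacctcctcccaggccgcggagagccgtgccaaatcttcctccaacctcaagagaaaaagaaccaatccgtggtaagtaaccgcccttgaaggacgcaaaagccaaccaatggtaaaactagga
CHEK1 (chr11:125626029-125626228, plus strand): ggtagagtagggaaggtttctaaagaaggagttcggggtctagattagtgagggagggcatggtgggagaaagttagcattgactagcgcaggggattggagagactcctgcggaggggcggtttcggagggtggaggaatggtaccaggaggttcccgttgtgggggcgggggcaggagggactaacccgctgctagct
FANCA (chr16:89816648-89816847, minus strand): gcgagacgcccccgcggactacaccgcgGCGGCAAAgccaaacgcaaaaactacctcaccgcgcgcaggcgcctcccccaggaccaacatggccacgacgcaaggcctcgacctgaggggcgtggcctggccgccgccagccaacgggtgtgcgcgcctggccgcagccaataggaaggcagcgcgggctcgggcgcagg
FANCC (chr9:95317710-95317909, minus strand): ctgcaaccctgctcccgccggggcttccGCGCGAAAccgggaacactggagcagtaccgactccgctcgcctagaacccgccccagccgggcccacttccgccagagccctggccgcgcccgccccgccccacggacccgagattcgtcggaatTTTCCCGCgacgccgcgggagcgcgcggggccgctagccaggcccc
The letters searched, on both strands, were TTTCCCGC, TTTCGCGC, TTTGCCGC and TTTGGCGC. In windows from 250 bases before to 50 after the start, which were at hand for 49 members, 8 (16.33%) held at least 1 match, against 3.33% of all 27305 promoters in the table. Those 8 were CLSPN, TOPBP1, XRCC2, EXO1, FANCA, FANCC, FANCD2 and HLTF. No such letters were found in the 5 windows of genes that fell in all 3 lines, and among genes that rose in all 3, the window of HLTF was the 1 of 8 that held a match. The CCAAT box (CCAAT) was found in 55.1% of the members' windows and 35.7% of all, TTTGAA, the core of the cell cycle homology region, in 14.29% and 15.43%, and the NRF1 letters GCATGCGC in 4.08% and 3.27%. No window was at hand for DNA2, FANCI, HUS1, NBN, WEE1 and WRN.

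Library totals ran from 15391484 to 21850378 estimated counts, and levels are given as CPM, counts scaled to a fixed library total with TMM factors. DNMT3A, whose own and introduced transcripts share 1 value, had 26.9 ± 0.662 CPM (SD, n = 3) in untreated EV, 133 ± 5.17 in WT and 456 ± 185 in MUT, and every library of both DNMT3A lines lay above every EV library. Untreated MUT had the widest spread between replicates, with a within-group biological coefficient of variation of 0.190 against 0.0391 to 0.117 in the other 5 groups. Replicate 3 of untreated MUT had 254 CPM of DNMT3A against 499.7 and 615 in replicates 1 and 2, and each call in the MUT effect that changed without this library is named with its value. The 9 mesenchymal markers in the table summed to between 3044 and 4529 CPM. The 8 epithelial markers summed to between 486 and 999.9 CPM, with ELF3 and ESRP1 under 1 CPM in all libraries, and the 6 blood markers to between 0.993 and 3.12 CPM, with CD14, HBB and SPI1 under 1 CPM.

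After cytarabine the members split rather than moving together. In EV, 10 of the 55 rose, 11 fell and 34 did not pass the threshold, an adjusted p under 0.05 in edgeR's quasi-likelihood test with Benjamini-Hochberg adjustment over 18226 genes. In WT, 15 rose and 11 fell, and in MUT 21 rose and 8 fell. Over all tested genes 26.1% rose and 22.9% fell in EV, 26.3% and 22.7% in WT and 30.4% and 25.9% in MUT, so the members' shares lay near or below those of all genes, apart from the share that rose in MUT. The median log2 fold change was -0.042 for the members and 0.051 for all genes in EV, 0.048 and 0.026 in WT, and 0.099 and 0.054 in MUT. With the authors' own scaling factors the members' medians were -0.12 in EV, -0.013 in WT and 0.014 in MUT. The medians of all genes with those factors were -0.023, -0.035 and -0.031. With genes of a mean of at least 50 counts alone, the EV median was 0.014 for the members and 0.018 for all such genes. In fits of the groups compared alone, 12 members rose and 12 fell in EV, 18 and 16 in WT, and 14 and 7 in MUT. In that MUT fit 7976 of all genes passed, 53.74% of them higher, against 10257 in the fit of all libraries. The EV and WT fits called 9206 and 10919 of all genes, against 8940 and 8932 in the fit of all libraries. In bulk RNA, fewer cells of a type and less RNA per cell cannot be told apart.

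Many calls recurred across the lines. ATM, RAD51C, FANCI, FANCL, BRIP1, EME1, HLTF, RECQL and TP53BP1 rose in all 3 lines, which is 9 of 55 members, against 18.9% of all genes. ATRIP, CHEK1, TIPIN, HUS1, NBN, FANCE and ZRANB3 fell in all 3, which is 7 of 55, against 16.4%. CLSPN, BRCA1, RAD51D, EXO1, DNA2 and FANCG rose in WT and MUT without passing the threshold in EV. In a fit of the EV groups alone, CLSPN (0.28), RAD51D (0.20) and FANCG (0.16) also passed in EV. With genes of a mean of at least 50 counts, RAD51D (0.25), EXO1 (0.23) and FANCG (0.20) did. No member rose in one line and fell in another. The threshold was passed in no line by 19 of 55 members, against 31.2% of all genes. Across the 55 members, which share the libraries of each line, Pearson's r was 0.868 between the EV and WT effects, 0.876 between those of EV and MUT and 0.875 between those of WT and MUT, with Spearman's rho of 0.844, 0.815 and 0.885.

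The changes were small. Median absolute log2 fold changes in EV, WT and MUT were 0.174, 0.247 and 0.293 for the members, where the values were 0.311, 0.309 and 0.363 for the 10062 genes of the same range of abundance. The largest was the fall of HUS1 in EV, -0.88. The count of members that rose in EV dropped from 10 to 6 without treated EV replicate 2 or without replicate 3, and to 4 with the authors' factors, under which 16 fell. With those factors 12 rose and 18 fell in WT. Of all genes that passed with those factors, 45.22% were higher in EV and 46.85% in WT, in place of 53.22% and 53.58%. Without untreated MUT replicate 3, 19 members rose and 12 fell in MUT in place of 21 and 8, with 4 calls lost (BRCA1, BRCA2, XRCC2 and SLX4) and 6 gained (ATR, CHEK2, PALB2, UBE2T, RFWD3 and MDC1). The median without that library was 0.051 for the members and 0.029 for all genes. Against a minimum fold change of 1.2, 3 members rose in EV, 4 in WT and 7 in MUT, and 6 fell in WT.

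**Figure D1:**
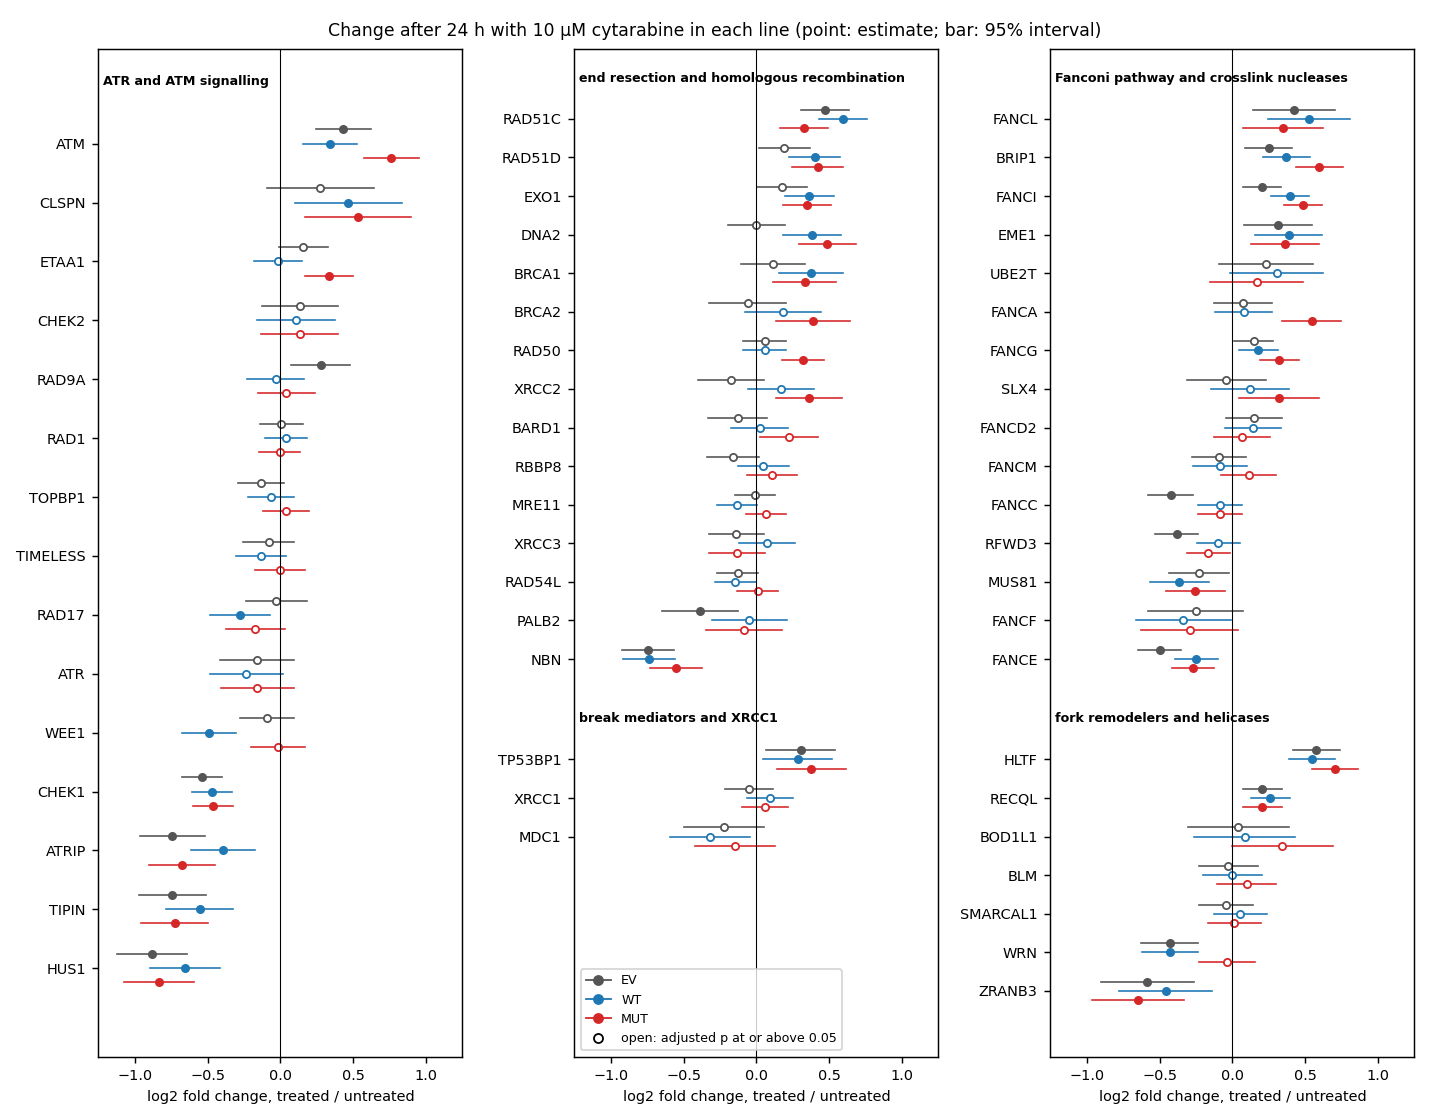
Change in each of the 55 members after cytarabine, by role. Points are log2 fold changes of treated over untreated cultures in EV, WT and MUT, bars 95% intervals, and filled points passed the adjusted p threshold. HUS1 lies furthest to the left and ATM in MUT furthest to the right.

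Among the 15 genes of ATR and ATM signalling, EV had 2 rises and 4 falls, WT 2 and 6, and MUT 3 and 4. Of all genes, 26.1% rose and 22.9% fell in EV, 26.3% and 22.7% in WT, and 30.4% and 25.9% in MUT. The 4 members that fell in every line sit at different steps. ATRIP brings ATR to stalled forks, and HUS1 is a subunit of the checkpoint clamp. TIPIN belongs to the fork protection complex, and CHEK1 is the effector kinase. In the fit of all libraries ATR itself passed the threshold in no line, and ATM, the kinase of DNA breaks, rose in all 3.

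HUS1 (chromosome 7, 47963288 to 47979554, minus strand) stood at 30.7, 27.98 and 29.3 CPM in EV, 26.5, 25.98 and 26.4 in WT and 26.5, 21.3 and 29.9 in MUT without treatment. HUS1 after cytarabine stood at 15.4, 14.5 and 17.7 CPM in EV, 14.98, 18.5 and 16.7 in WT and 13.4, 15.9 and 14.3 in MUT. Every treated library lay below every untreated library of its line. The log2 fold change was -0.88 (SE 0.114) in EV, -0.65 (SE 0.114) in WT and -0.84 (SE 0.115) in MUT, with adjusted p of 3.42e-06, 8.82e-05 and 4.67e-06 in edgeR. TIPIN (chromosome 15, 66336206 to 66386747, minus strand) had 38.6, 33.2 and 35.7 CPM in EV, 34.97, 34.9 and 32.2 in WT and 37.4, 31.8 and 43.6 in MUT in untreated cultures. TIPIN in treated cultures had 22.004, 18.6 and 23.4 CPM in EV, 21.8, 21.8 and 25.96 in WT and 21.6, 24.1 and 22.4 in MUT, again with no overlap between the groups of any line. Its log2 fold change was -0.74 (SE 0.111) in EV, -0.55 (SE 0.110) in WT and -0.73 (SE 0.110) in MUT, with adjusted p of 1.82e-05, 0.000347 and 1.49e-05 in edgeR. Reads of TIPIN could also match 1 annotated pseudogene copy.

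ATRIP (chromosome 3, 48446710 to 48467646, plus strand) showed 31.6, 32.8 and 30.1 CPM in EV, 31.4, 31.6 and 31.8 in WT and 26.6, 28.1 and 36.4 in MUT before treatment. ATRIP with cytarabine showed 19.1, 18.2 and 19.2 CPM in EV, 23.8, 24.5 and 23.9 in WT and 16.2, 19.4 and 21.4 in MUT. The groups did not overlap in any line, and untreated MUT replicate 3 was the highest library. For ATRIP the log2 fold change was -0.74 (SE 0.108) in EV, -0.39 (SE 0.105) in WT and -0.68 (SE 0.107) in MUT, with adjusted p of 1.22e-05, 0.00415 and 2.43e-05 in edgeR. TREX1, an exonuclease gene on the same strand that shares 31.6% of the exonic bases of ATRIP, rose in EV, by 0.87 on the log2 scale (adjusted p = 0.00775, edgeR), and gave 0.31 in WT and 0.25 in MUT, which did not pass; how shared reads were assigned is not given in the sources used here. CHEK1 (chromosome 11, 125625136 to 125676256, plus strand) stood at 50.7, 54.7 and 51.7 CPM in EV, 50.7, 44.3 and 49.1 in WT and 54.5, 52.6 and 52.996 in MUT when untreated. CHEK1 under treatment stood at 34.8, 36.02 and 37.3 CPM in EV, 36.2, 33.4 and 34.5 in WT and 40.5, 37.3 and 38.2 in MUT, below every untreated library. CHEK1 gave a log2 fold change of -0.54 (SE 0.0664) in EV, -0.47 (SE 0.0663) in WT and -0.46 (SE 0.0657) in MUT, with adjusted p of 1.77e-06, 9.22e-06 and 6.68e-06 in edgeR. For HUS1, TIPIN and CHEK1 the fall passed the threshold in all 14 alternatives run in each line, and for ATRIP in all but 1, the minimum fold change of 1.2 in WT.

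ATR (chromosome 3, 142449235 to 142578827, minus strand) was measured at 32.5, 32.4 and 35.2 CPM in EV, 35.8, 33.5 and 33.1 in WT and 33.9, 36.7 and 25.01 in MUT without the drug. ATR with the drug was at 25.5, 33.7 and 30.3 CPM in EV, 28.3, 31.3 and 27.4 in WT and 25.8, 31.6 and 28.2 in MUT. Treated and untreated libraries overlapped in EV and MUT. Its log2 fold change was -0.16 in EV, -0.23 in WT and -0.16 in MUT, with 95% intervals of -0.42 to 0.09 in EV, -0.49 to 0.017 in WT and -0.41 to 0.093 in MUT, and adjusted p of 0.283, 0.115 and 0.271 in edgeR, and the intervals held moderate falls as well as no change. Without untreated MUT replicate 3, whose ATR value was the lowest of the 18 libraries, the MUT value was -0.34 and passed the threshold. In WT, ATR passed with the authors' factors (-0.30) and in a fit of the WT groups alone (-0.23). ATM (chromosome 11, 108222484 to 108369103, plus strand), by contrast, had 40.3, 46.9 and 53.98 CPM in EV, 56.5, 57.3 and 51.4 in WT and 49.1, 41.4 and 41.3 in MUT in untreated cells. ATM in treated cells had 60.2, 63.99 and 66.2 CPM in EV, 70.2, 68.9 and 70.2 in WT and 72.1, 78.6 and 72.99 in MUT. All treated libraries exceeded all untreated ones. ATM gave a log2 fold change of 0.43 (SE 0.0905) in EV, 0.34 (SE 0.0892) in WT and 0.76 (SE 0.0901) in MUT, with adjusted p of 0.000564, 0.00351 and 7.81e-07 in edgeR.

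CLSPN, the adaptor through which ATR reaches CHEK1, had 55.2, 62.3 and 58.96 CPM in EV, 61.2, 57.2 and 62.8 in WT and 75.2, 86.98 and 37.5 in MUT in the untreated groups. CLSPN in the treated groups had 68.3, 76.97 and 68.2 CPM in EV, 82.1, 88.6 and 79.8 in WT and 95.3, 99.02 and 94.4 in MUT. The groups did not overlap in any line, while the untreated MUT libraries were spread more than 2-fold. The log2 fold change was 0.27 (SE 0.176) in EV, 0.47 (SE 0.174) in WT and 0.53 (SE 0.174) in MUT, with adjusted p of 0.214, 0.0329 and 0.0137 in edgeR. In a fit of the EV groups alone, CLSPN gave 0.28 in EV and passed. Without untreated MUT replicate 3 the MUT value was 0.22, still past the threshold. The WT call was lost without any 1 of the 6 WT libraries, at values of 0.42 to 0.50. WEE1, the kinase that holds back entry into mitosis, stood at 67.3, 57.02 and 70.3 CPM in EV, 62.3, 64.7 and 59.2 in WT and 69.7, 57.99 and 65.2 in MUT untreated. WEE1 with cytarabine stood at 58.2, 59.2 and 65.3 CPM in EV, 42.8, 44.5 and 45.1 in WT and 58.3, 70.5 and 61.9 in MUT. The treated WT libraries lay below all others, while treated and untreated values overlapped in EV and MUT. Its log2 fold change was -0.09 (SE 0.0886) in EV, -0.49 (SE 0.0894) in WT and -0.018 (SE 0.0880) in MUT, with adjusted p of 0.431, 0.000140 and 0.876 in edgeR.

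Within the clamp and its loader, the log2 fold change of RAD1 was 0.0071 in EV, 0.037 in WT and -0.0064 in MUT, RAD9A gave 0.28 in EV, -0.033 in WT and 0.04 in MUT and RAD17 -0.029 in EV, -0.28 in WT and -0.17 in MUT. RAD9A rose in EV (adjusted p = 0.0237) with 1 treated library overlapping the untreated ones, and RAD17 fell in WT (adjusted p = 0.0238, both edgeR). The RAD9A call was lost without treated EV replicate 1 (0.17) or 3 (0.28) or untreated EV replicate 1 (0.28) or 3 (0.24), and that of RAD17 without treated WT replicate 2 (-0.26) or 3 (-0.29) or untreated WT replicate 1 (-0.25) or 3 (-0.24). ETAA1, an ATR activator that works beside TOPBP1, rose in MUT, at 0.34 (SE 0.0789, adjusted p = 0.00128) in edgeR, and gave 0.16 in EV and -0.019 in WT. TOPBP1, TIMELESS and CHEK2 passed the threshold in no line, with log2 fold changes between -0.13 and 0.13. With the authors' factors, TIMELESS passed in WT (-0.20) and TOPBP1 in EV (-0.21). TIMELESS also passed in a fit of the WT groups alone (-0.13). In MUT, CHEK2 gave 0.32 and passed without untreated replicate 3, and RAD17 gave -0.29 and passed without untreated replicate 2. CHEK2 has 8 annotated pseudogene copies, so its value is uncertain.

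**Figure D2:**
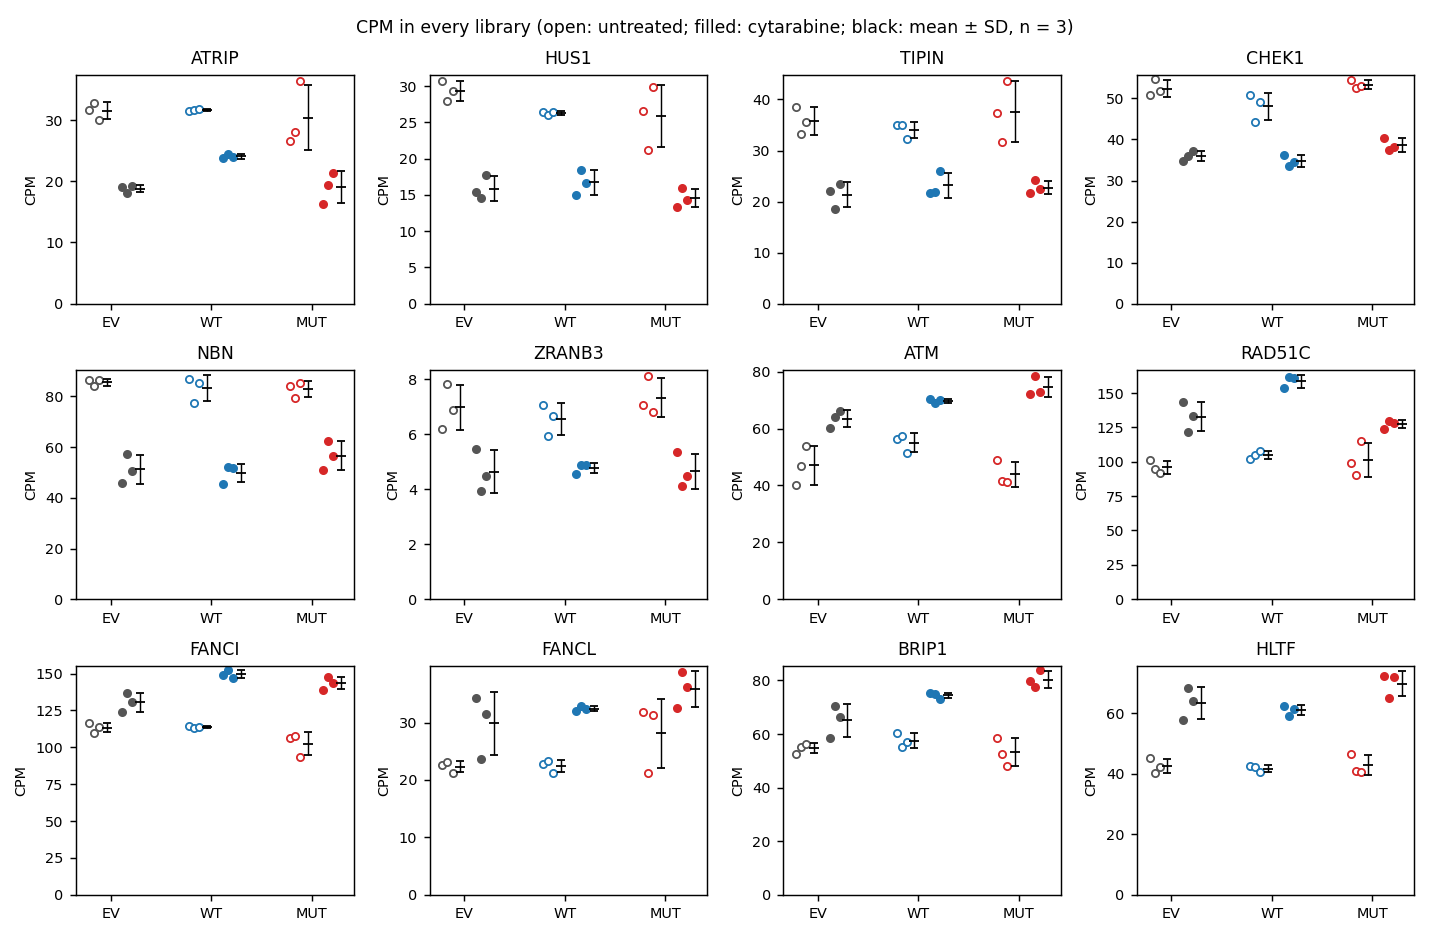
CPM of 12 members in every library, on a linear axis from 0. Open circles are untreated and filled circles cytarabine-treated cultures, with the mean and SD (n = 3) in black; ATRIP, HUS1, TIPIN, CHEK1, NBN and ZRANB3 are lower, and the other 6 genes higher, in the treated cultures of all 3 lines.

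Of the 15 genes of end resection and homologous recombination, EV had 1 rise and 2 falls, WT 5 and 1, and MUT 8 and 1. The shares of all genes were 26.1%, 26.3% and 30.4% for rises and 22.9%, 22.7% and 25.9% for falls. RAD51C, which acts in strand exchange, rose in every line, and NBN, the signalling subunit of the MRE11-RAD50-NBN break sensor, fell in every line. BRCA1, RAD51D and the nucleases EXO1 and DNA2 rose in WT and MUT. BRCA2, XRCC2 and RAD50 rose in MUT, and PALB2, which links BRCA1 to BRCA2, fell in EV, a call that was lost without untreated EV replicate 2 (-0.31). In MUT, PALB2 gave -0.085 and did not pass, but without untreated MUT replicate 3 it gave -0.27 and passed.

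NBN (chromosome 8, 89933336 to 90003229, minus strand) was at 86.3, 84.01 and 86.4 CPM in EV, 86.7, 77.2 and 85.4 in WT and 83.9, 79.4 and 85.4 in MUT in untreated cultures. NBN after treatment was at 45.8, 57.1 and 50.6 CPM in EV, 45.6, 52.2 and 51.5 in WT and 50.9, 62.2 and 56.5 in MUT. No treated library reached an untreated one. NBN gave a log2 fold change of -0.74 (SE 0.0858) in EV, -0.74 (SE 0.0856) in WT and -0.55 (SE 0.0850) in MUT, with adjusted p of 8.23e-07, 8.19e-07 and 1.80e-05 in edgeR. Its partners did not follow: MRE11, the nuclease, had 57.5, 51.9 and 59.1 CPM in EV, 52.5, 48.5 and 51.3 in WT and 48.6, 48.6 and 50.9 in MUT untreated and RAD50 rose in MUT. MRE11 with cytarabine had 56.1, 56.8 and 54.4 CPM in EV, 44.5, 48.96 and 45.3 in WT and 52.2, 54.1 and 49.02 in MUT. Treated and untreated values of MRE11 overlapped in every line, and its log2 fold change was -0.01 in EV, -0.13 in WT and 0.068 in MUT, with 95% intervals of -0.15 to 0.13 in EV, -0.27 to 0.0035 in WT and -0.07 to 0.21 in MUT. MRE11 fell past the threshold in WT with the authors' factors (-0.20) and in a fit of the WT groups alone (-0.13). RAD50, the ATPase of the complex, gave 0.056 (SE 0.0712) in EV, 0.056 (SE 0.0708) in WT and 0.32 (SE 0.0700) in MUT, with adjusted p of 0.546, 0.536 and 0.000708 in edgeR.

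RAD51C (chromosome 17, 58692573 to 58735612, plus strand) had 101, 94.9 and 91.8 CPM in EV, 102, 105 and 108 in WT and 99.4, 90.1 and 115 in MUT without treatment. RAD51C with treatment had 143, 122 and 133 CPM in EV, 153, 162 and 161 in WT and 124, 129.6 and 128 in MUT. The groups of each line were apart. RAD51C gave a log2 fold change of 0.47 (SE 0.0790) in EV, 0.59 (SE 0.0786) in WT and 0.33 (SE 0.0787) in MUT, with adjusted p of 6.46e-05, 4.23e-06 and 0.00154 in edgeR. Values for the related genes varied: RAD51D gave 0.19 in EV, 0.40 in WT and 0.42 in MUT and passed the threshold in WT and MUT, XRCC2 gave -0.17 in EV, 0.17 in WT and 0.36 in MUT and passed it in MUT, and XRCC3 gave -0.14 in EV, 0.072 in WT and -0.13 in MUT and passed it in none. The XRCC2 value was 0.25 and did not pass without untreated MUT replicate 3. RAD51D passed in EV without untreated replicate 2 (0.25) or treated replicate 1 (0.26), and XRCC3 in MUT without untreated replicate 1 (-0.24).

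BRCA1 stood at 81.7, 79.7 and 83.1 CPM in EV, 68.6, 70.7 and 71.9 in WT and 74.4, 93.1 and 65.96 in MUT in untreated cultures. BRCA1 in treated cultures stood at 76.8, 103 and 85.7 CPM in EV, 92.1, 95.7 and 86.1 in WT and 101, 98.9 and 93.4 in MUT. EV values overlapped, and the treated libraries were higher in WT and, narrowly, in MUT. The log2 fold change was 0.12 (SE 0.104) in EV, 0.37 (SE 0.104) in WT and 0.33 (SE 0.104) in MUT, with adjusted p of 0.388, 0.00565 and 0.0109 in edgeR. BRCA2 was measured at 32.7, 38.2 and 36.03 CPM in EV, 36.04, 36.03 and 36.4 in WT and 46.4, 41.6 and 30.4 in MUT before and 28.02, 39.02 and 35.6 CPM in EV, 39.01, 44.3 and 39.9 in WT and 49.2, 53.5 and 52.5 in MUT after treatment. The EV libraries overlapped and the WT and MUT libraries did not, with the lowest untreated MUT value in replicate 3. BRCA2 gave a log2 fold change of -0.06 (SE 0.126) in EV, 0.18 (SE 0.124) in WT and 0.39 (SE 0.123) in MUT, with adjusted p of 0.726, 0.235 and 0.0112 in edgeR. Without untreated MUT replicate 3 the MUT values of both genes were 0.20 and did not pass the threshold. In WT, BRCA2 passed in a fit of the WT groups alone (0.19). BARD1, the partner of BRCA1, gave -0.13 in EV, 0.021 in WT and 0.22 in MUT and passed the threshold in no line, though it passed in MUT without untreated replicate 1 (0.28) and in EV without treated replicate 2 (-0.24).

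EXO1, a nuclease of long-range resection, had 45.9, 43.8 and 42.5 CPM in EV, 39.6, 39.4 and 42.6 in WT and 45.6, 52.3 and 47.3 in MUT without cytarabine. EXO1 with cytarabine had 46.6, 56.6 and 46.4 CPM in EV, 53.6, 52.6 and 50.05 in WT and 59.01, 66.3 and 59.4 in MUT. Treated libraries were higher than untreated ones in each line. Its log2 fold change was 0.17 (SE 0.0812) in EV, 0.36 (SE 0.0809) in WT and 0.35 (SE 0.0800) in MUT, with adjusted p of 0.0837, 0.000989 and 0.00106 in edgeR. DNA2, a nuclease and helicase of resection and of reversed forks, was at 24.01, 26.6 and 28.7 CPM in EV, 20.01, 21.2 and 20.5 in WT and 26.1, 21.1 and 19.9 in MUT untreated. DNA2 after cytarabine was at 26.7, 26.2 and 26.3 CPM in EV, 27.8, 27.3 and 25.2 in WT and 30.98, 33.2 and 30.02 in MUT. EV values overlapped, while WT and MUT values did not. DNA2 gave -0.0013 (SE 0.0942) in EV, 0.38 (SE 0.0947) in WT and 0.49 (SE 0.0937) in MUT, with adjusted p of 0.993, 0.00238 and 0.000202 in edgeR. The untreated level of DNA2 was lower in WT than in EV, and that comparison shares the untreated WT libraries with the WT effect.

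The 15 Fanconi pathway and nuclease genes had 4 rises and 3 falls in EV, 5 and 2 in WT, and 7 and 2 in MUT. Among all genes the shares were 26.1% and 22.9% in EV, 26.3% and 22.7% in WT, and 30.4% and 25.9% in MUT. FANCI, which forms a clamp with FANCD2 at crosslinks and stalled forks, FANCL, the ubiquitin ligase of the core complex, the helicase BRIP1 and EME1, partner of the nuclease MUS81, rose in all lines. FANCE, the core subunit that contacts FANCD2, fell in all lines.

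BRIP1 (chromosome 17, 61681266 to 61863522, minus strand) had 52.7, 55.3 and 56.3 CPM in EV, 60.5, 55.1 and 57.03 in WT and 58.6, 52.7 and 48.1 in MUT in untreated libraries. BRIP1 in treated libraries had 58.4, 70.6 and 66.2 CPM in EV, 75.2, 74.8 and 73.3 in WT and 79.7, 77.6 and 83.8 in MUT. The groups did not overlap in any line. BRIP1 gave a log2 fold change of 0.25 (SE 0.0777) in EV, 0.37 (SE 0.0769) in WT and 0.60 (SE 0.0771) in MUT, with adjusted p of 0.0123, 0.000515 and 2.36e-06 in edgeR. FANCI gave 0.20 (SE 0.0629) in EV, 0.40 (SE 0.0627) in WT and 0.48 (SE 0.0629) in MUT, with adjusted p of 0.0117, 3.32e-05 and 2.37e-06 in edgeR, and its groups were apart in each line. In EV, BRIP1 did not pass without treated replicate 2 (0.19) or untreated replicate 1 (0.22), nor FANCI without treated replicate 2 (0.17) or untreated replicate 2 (0.18). POLG, on the opposite strand, shares 9.68% of the exonic bases of FANCI and fell in all 3 lines. FANCD2 had 60.2, 59.4 and 54.4 CPM in EV, 54.2, 53.5 and 54.2 in WT and 55.01, 69.4 and 51.2 in MUT untreated. FANCD2 with treatment had 61.1, 68.3 and 63.8 CPM in EV, 60.5, 61.01 and 56.8 in WT and 60.1, 66.98 and 56.4 in MUT. The log2 fold change of FANCD2 was 0.15 in EV, 0.14 in WT and 0.064 in MUT, with 95% intervals of -0.042 to 0.34 in EV, -0.053 to 0.33 in WT and -0.13 to 0.26 in MUT, and passed the threshold in no line, so rises of the size seen for FANCI lay inside the EV interval and outside the WT and MUT intervals. The MUT value of FANCD2 was -0.053 without untreated MUT replicate 3. In a fit of the WT groups alone, FANCD2 gave 0.14 in WT and passed.

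FANCL (chromosome 2, 58159243 to 58241373, minus strand) stood at 22.6, 23.1 and 21.3 CPM in EV, 22.8, 23.3 and 21.3 in WT and 31.9, 21.1 and 31.3 in MUT without the drug. FANCL with the drug stood at 34.3, 23.7 and 31.6 CPM in EV, 31.96, 32.8 and 32.4 in WT and 32.6, 38.9 and 36.1 in MUT. Treated libraries exceeded untreated ones, but in EV replicate 2 and in MUT replicate 1 the gap was small. FANCL gave 0.43 (SE 0.135) in EV, 0.53 (SE 0.133) in WT and 0.35 (SE 0.131) in MUT, with adjusted p of 0.0132, 0.00279 and 0.0308 in edgeR. FANCL did not pass in EV without treated replicate 1 (0.32) or 3 (0.38) or untreated replicate 3 (0.39), nor in MUT without treated replicate 2 (0.29) or 3 (0.34) or untreated replicate 2 (0.14), the lowest of its group. VRK2, on the opposite strand, shares 27.3% of the exonic bases of FANCL, had a mean of 1292 counts against 561 and fell in all 3 lines (-0.27, -0.31 and -0.32), and whether its reads enter the FANCL value was not tested. FANCE gave -0.50 in EV, -0.25 in WT and -0.27 in MUT and passed in each line, while FANCC, its neighbour in the core complex, gave -0.42 in EV, -0.085 in WT and -0.085 in MUT and passed in EV. FANCG gave 0.15 in EV, 0.18 in WT and 0.32 in MUT and passed in WT and MUT, though not in WT without treated replicate 2 or 3 or untreated replicate 1 or 3 (0.13 to 0.18). In EV, FANCG passed without treated replicate 1 (0.18). FANCF (-0.25 in EV, -0.34 in WT and -0.29 in MUT) and FANCM (-0.091 in EV, -0.083 in WT and 0.11 in MUT) passed in none. FANCF passed in MUT without untreated replicate 2 (-0.54) or treated replicate 3 (-0.45). In WT, FANCF passed with the authors' factors (-0.40) and in a fit of the WT groups alone (-0.33).

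FANCA, a subunit of the core complex, was measured at 48.02, 55.1 and 53.8 CPM in EV, 50.1, 58.1 and 53.1 in WT and 46.2, 35.2 and 36.2 in MUT in untreated cells. FANCA in treated cells was at 55.99, 51.7 and 56.9 CPM in EV, 57.8, 57.8 and 54.6 in WT and 52.1, 57.8 and 61.97 in MUT. The treated values of the 3 lines overlapped, and the untreated MUT values lay below those of EV and WT. Its log2 fold change was 0.07 (SE 0.0949) in EV, 0.078 (SE 0.0942) in WT and 0.54 (SE 0.0955) in MUT, with adjusted p of 0.574, 0.516 and 7.92e-05 in edgeR. ZNF276, on the opposite strand, shares 27.4% of the exonic bases of FANCA, and since no handling of strand is given, reads of the pair cannot be told apart. ZNF276 gave -0.52 in EV, -0.55 in WT and -0.23 in MUT after cytarabine, and the first 2 passed.

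EME1 and MUS81, which form 1 nuclease, went opposite ways. EME1 gave 0.32 in EV, 0.39 in WT and 0.36 in MUT and passed in each line, and MUS81 gave -0.23 in EV, -0.37 in WT and -0.26 in MUT and passed in WT and MUT, and also in EV without treated replicate 1 (-0.33). EME1 did not pass in EV without treated replicate 1 or 3 or untreated replicate 2 or 3 (0.23 to 0.33), nor in MUT without treated replicate 2 (0.27), and MUS81 did not in MUT without untreated replicate 1 (-0.20) or any treated replicate (-0.26 to -0.24). Both have opposite-strand neighbours of far higher counts that fell in all 3 lines. LRRC59, with a mean of 7982 counts against 321.7 for EME1, shares 23.2% of the exonic bases of EME1, and CFL1, with 27136 against 831.7 for MUS81, 7.02% of those of MUS81. Whether those reads enter the values was not tested. SLX4, the nuclease scaffold, gave -0.042 in EV, 0.12 in WT and 0.32 in MUT and passed in MUT with overlapping groups. SLX4 did not pass without untreated MUT replicate 3 (0.12), nor without untreated replicate 1 or any treated MUT replicate (0.31 to 0.33). RFWD3, the ubiquitin ligase that acts on RPA at damaged DNA, gave -0.38 in EV, -0.10 in WT and -0.16 in MUT and passed in EV. In MUT, RFWD3 passed without untreated replicate 3 (-0.25) or treated replicate 3 (-0.21), with RLE factors (-0.21), with the authors' factors (-0.25) and in DESeq2 (-0.21). UBE2T, the conjugating enzyme that works with FANCL, gave 0.23 in EV, 0.30 in WT and 0.17 in MUT and passed in none, and without untreated MUT replicate 3 its MUT value was 0.35 and passed. In WT, UBE2T passed in a fit of the WT groups alone (0.31).

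**Figure D3:**
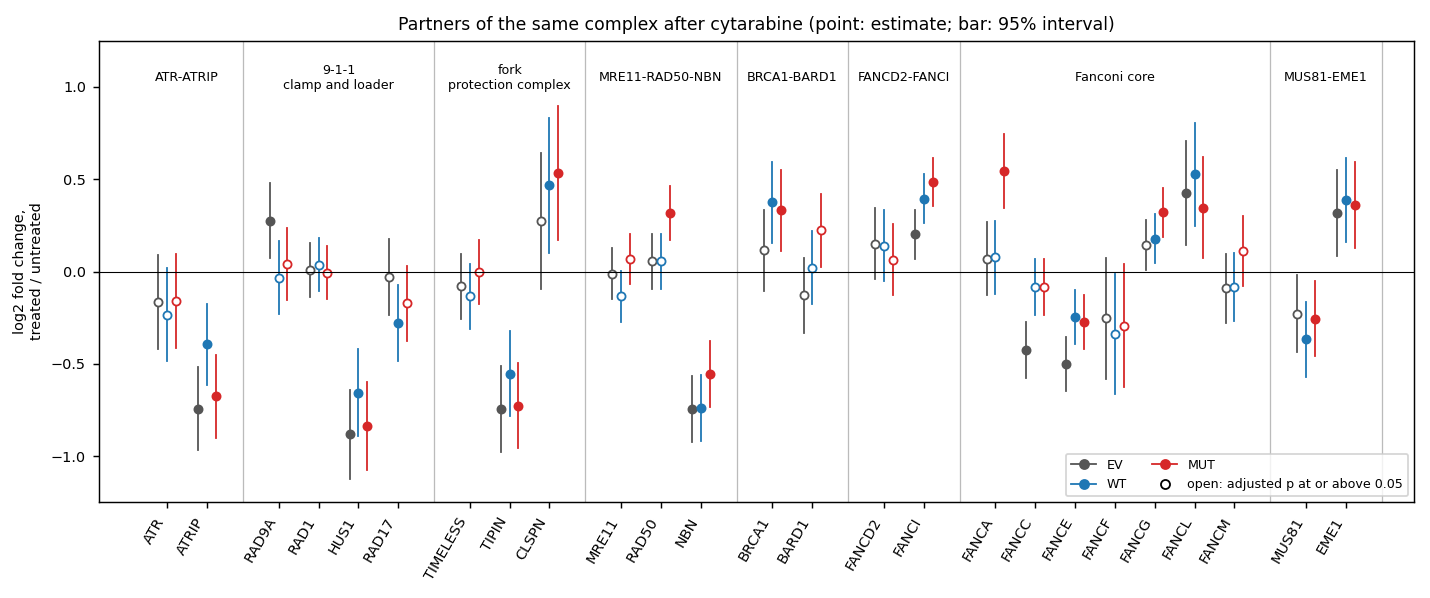
Log2 fold change after cytarabine for partners of the same complex, with 95% intervals, in EV, WT and MUT; filled points passed the adjusted p threshold. ATRIP, HUS1, TIPIN and NBN lie below 0 in all 3 lines while ATR, RAD1, TIMELESS and MRE11 beside them passed the threshold in none.

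Among the 7 fork remodelers and helicases, HLTF and RECQL rose in every line and ZRANB3 fell in every line. HLTF and ZRANB3 both reverse stalled forks, and the third such enzyme, SMARCAL1, passed the threshold in no line. HLTF (chromosome 3, 149030127 to 149086555, minus strand) had 45.1, 40.3 and 42.1 CPM in EV, 42.5, 42.3 and 40.4 in WT and 46.5, 41.1 and 40.7 in MUT untreated. HLTF after treatment had 57.8, 68.5 and 64.1 CPM in EV, 62.5, 59.2 and 61.6 in WT and 72.4, 64.9 and 72.1 in MUT. The groups of each line did not overlap. For HLTF the log2 fold change was 0.58 (SE 0.0757) in EV, 0.55 (SE 0.0753) in WT and 0.71 (SE 0.0751) in MUT, with adjusted p of 3.86e-06, 6.44e-06 and 2.02e-07 in edgeR, and it passed in all 14 alternatives of each line. GYG1, on the opposite strand and sharing 31.0% of the exonic bases of HLTF, gave -0.071 in EV, 0.20 in WT and -0.21 in MUT and passed in none.

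ZRANB3 (chromosome 2, 135136916 to 135531237, minus strand) had the lowest level of all members per length and stood at 6.19, 7.83 and 6.89 CPM in EV, 7.06, 5.93 and 6.65 in WT and 7.07, 8.11 and 6.80 in MUT in untreated cultures. ZRANB3 in treated cultures stood at 5.48, 3.93 and 4.49 CPM in EV, 4.55, 4.86 and 4.88 in WT and 5.36, 4.12 and 4.49 in MUT. The groups did not overlap in any line. Its log2 fold change was -0.58 (SE 0.153) in EV, -0.46 (SE 0.152) in WT and -0.65 (SE 0.151) in MUT, with adjusted p of 0.00367, 0.0169 and 0.00115 in edgeR. The WT call was lost without replicate 1 of either WT group (-0.43 and -0.40). SMARCAL1 was at 30.4, 30.96 and 29.02 CPM in EV, 32.02, 31.8 and 29.8 in WT and 30.3, 39.1 and 32.3 in MUT without cytarabine. SMARCAL1 with cytarabine was at 26.99, 31.1 and 29.6 CPM in EV, 34.2, 31.2 and 31.9 in WT and 34.2, 32.8 and 35.6 in MUT. The values overlapped in every line, and the log2 fold change of SMARCAL1 was -0.045 in EV, 0.055 in WT and 0.014 in MUT, with 95% intervals of -0.23 to 0.14 in EV, -0.13 to 0.24 in WT and -0.17 to 0.19 in MUT.

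BOD1L1, which shields stalled forks from DNA2, had 47.3, 60.4 and 55.95 CPM in EV, 54.7, 54.3 and 55.9 in WT and 51.8, 55.9 and 27.1 in MUT untreated. BOD1L1 with treatment had 50.1, 60.1 and 57.99 CPM in EV, 54.9, 62.1 and 57.9 in WT and 55.7, 61.7 and 53.6 in MUT. The values overlapped, and untreated MUT replicate 3 was the lowest of the 18 libraries. The log2 fold change was 0.039 in EV, 0.084 in WT and 0.34 in MUT, with adjusted p of 0.868, 0.699 and 0.0861 in edgeR. Leaving out untreated MUT replicate 3, the MUT value of BOD1L1 was 0.051, and without untreated MUT replicate 1 or 2 it was 0.46 or 0.49 and passed. RECQL gave 0.21 (SE 0.0637) in EV, 0.26 (SE 0.0634) in WT and 0.20 (SE 0.0637) in MUT and passed in each line, with adjusted p of 0.0113, 0.00210 and 0.0104 in edgeR, while the opposite-strand gene PYROXD1, which shares 41.8% of its exonic bases, gave -0.78, -0.76 and -0.95 in EV, WT and MUT. RECQL did not pass in EV without treated replicate 2 or 3 (0.18 in each case), nor in MUT without untreated replicate 2 (0.15). The helicase WRN gave -0.43 in EV, -0.43 in WT and -0.035 in MUT and passed in EV and WT, and BLM gave -0.029 in EV, 0.00013 in WT and 0.10 in MUT and passed in none.

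TP53BP1, which limits resection at breaks, gave 0.30 (SE 0.114) in EV, 0.28 (SE 0.113) in WT and 0.38 (SE 0.114) in MUT and rose in each line, with adjusted p of 0.0327, 0.0442 and 0.00846 in edgeR. The EV call was lost without replicate 1 or 2 of either EV group (0.25 to 0.30), the WT call without any 1 of the 6 WT libraries (0.26 to 0.30), and the MUT value was 0.16 without untreated MUT replicate 3. TUBGCP4, on the opposite strand with 36.0% of the exonic bases of TP53BP1, gave -0.26, -0.17 and -0.31. The mediator MDC1 gave -0.22 in EV, -0.32 in WT and -0.15 in MUT and the repair scaffold XRCC1 -0.051 in EV, 0.093 in WT and 0.062 in MUT, and neither passed in any line. MDC1 gave -0.40 in MUT and passed without untreated MUT replicate 3, and in WT it passed with the authors' factors (-0.38), in a fit of the WT groups alone (-0.31) and in DESeq2 (-0.31). In EV, MDC1 passed in a fit of the EV groups alone (-0.21).

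Per kb of canonical transcript, UBE2T (48.4 CPM per kb), RAD51C (46.9) and RECQL (38.3) had the highest mean levels over the 6 groups. ZRANB3 (0.867), WRN (2.53) and FANCM (2.89) had the lowest. Among the fork reversal enzymes HLTF had 10.1 and SMARCAL1 9.95 CPM per kb. ATR had 3.81, ATRIP 5.66 and CHEK1 10.6 CPM per kb.

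Other genes of these pathways, from lists written beside the members, had more falls than rises. Of the 72 tested, EV had 6 rises and 21 falls, WT 13 and 18, and MUT 15 and 24. Of all genes, 22.9%, 22.7% and 25.9% fell and 26.1%, 26.3% and 30.4% rose in the same lines. PPM1D, the phosphatase that shuts off checkpoint signalling, gave 0.43 in EV, 0.57 in WT and 0.56 in MUT on the log2 scale. RMI2 of the BLM complex gave 0.72, 0.70 and 0.76, POLQ, the polymerase of theta-mediated end joining, 0.51, 0.56 and 0.75, and RADX, which binds single-stranded DNA at forks, 0.67, 0.61 and 0.57. These 4 passed in every line.

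Falls that passed in every line came from each list. SHLD2 of shieldin, which opposes resection, gave -1.06 in EV, -0.78 in WT and -0.93 in MUT, and LIG3, the ligase partner of XRCC1, -0.64, -0.89 and -0.74. DBF4, the activator of the CDC7 kinase, gave -0.67, -0.66 and -0.71, and CDC25B, a phosphatase that promotes mitosis, -0.34, -0.48 and -0.41. UHRF1, which reads hemimethylated DNA and binds crosslinks, gave -0.73, -0.56 and -0.33, and FAAP100 of the Fanconi core -0.39, -0.50 and -0.36. UIMC1, which brings BRCA1 to ubiquitin at breaks, gave -0.38, -0.37 and -0.43, and NABP2, a single-stranded DNA binding protein, -0.37, -0.36 and -0.42.

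Among cell cycle genes, falls outnumbered rises in each line. Of 20 G2 and mitosis genes, EV had 11 falls and 2 rises, WT 15 and 1, and MUT 13 and 3, with medians of -0.28, -0.39 and -0.34. Of 26 S phase genes, the falls and rises numbered 11 and 2 in EV, 6 and 3 in WT and 8 and 6 in MUT, with medians of -0.17, 0.029 and -0.072. Of all genes 22.9%, 22.7% and 25.9% fell and 26.1%, 26.3% and 30.4% rose in EV, WT and MUT. The part of the cell cycle genes in the members' values was not tested.

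Without treatment, few members differed between lines in the fit of all libraries. WT differed from EV in 5 of 55 members, against 11.7% of all genes, MUT from EV in 10, against 19.9%, and MUT from WT in 8, against 21.2%. RAD9A, of the checkpoint clamp, was higher in both DNMT3A lines than in EV, and XRCC2, FANCE and RFWD3 were lower in both. FANCA and FANCM were lower in MUT than in EV and than in WT. The 3 comparisons share their libraries in pairs.

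RFWD3 (chromosome 16, 74621394 to 74666882, minus strand) had 158, 155 and 156 CPM in EV, 119, 122 and 125 in WT and 103, 111 and 94.9 in MUT in untreated cultures. RFWD3 in treated cultures had 112, 126 and 121 CPM in EV, 115, 120.3 and 107 in WT and 86.1, 91.8 and 97.4 in MUT. The 3 untreated lines were ordered EV, WT, MUT without overlap, and the treated MUT libraries lay below those of the other 2 lines. Against EV the untreated log2 fold change was -0.36 (SE 0.0707, adjusted p = 0.00206) in WT and -0.60 (SE 0.0712, adjusted p = 1.34e-05) in MUT by edgeR, and MUT was below WT by -0.25 (SE 0.0711, adjusted p = 0.0184). With cytarabine MUT stayed below EV, at -0.38 (SE 0.0710, adjusted p = 0.00123) in edgeR, and WT gave -0.072. Of the 26 other tested genes within 1 Mb of RFWD3, 15 were lower and 0 higher in untreated MUT than in EV, with a median of -0.52. With treatment 14 were lower. Among all genes 10.0% were lower in untreated MUT than in EV, and 7.13% with treatment. In untreated WT against EV, 7 of the 26 were lower and 0 higher, with a median of -0.18, against 7.36% of all genes lower. In untreated MUT against WT, 9 were lower and 1 higher, with a median of -0.30, against 9.54% of all genes lower. The part of this stretch of chromosome 16 in the RFWD3 value was not tested.

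FANCA (chromosome 16, 89737549 to 89816658, minus strand), further along the same chromosome, was lower in untreated MUT than in EV by -0.41 (SE 0.0966, adjusted p = 0.00524) and than in WT by -0.45 (SE 0.0961, adjusted p = 0.00234) in edgeR. Of 32 other genes within 1 Mb, 6 were lower and 1 higher in untreated MUT than in EV, with a median of -0.084, and 8 were lower and 2 higher than in WT, with a median of -0.22. Among all genes 10.0% were lower and 9.88% higher in untreated MUT than in EV, and 9.54% and 11.7% than in WT. ZNF276, which overlaps FANCA, gave -0.074 against EV and -0.51 against WT, and the latter passed. With cytarabine FANCA gave 0.061 against EV and 0.014 against WT, and neither passed. FANCM, the helicase that anchors the core complex, gave -0.29 (SE 0.0907, adjusted p = 0.0287) against EV and -0.35 (SE 0.0900, adjusted p = 0.00954) against WT in edgeR.

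RAD9A was at 17.4, 17.99 and 16.5 CPM in EV, 22.7, 22.1 and 23.9 in WT and 28.3, 23.8 and 25.4 in MUT in untreated cultures. RAD9A with treatment was at 23.8, 17.98 and 20.9 CPM in EV, 23.1, 21.3 and 22.7 in WT and 27.2, 25.5 and 27.02 in MUT. The untreated EV libraries lay below those of both DNMT3A lines. Against EV, RAD9A gave 0.40 (SE 0.0965, adjusted p = 0.00863) in WT and 0.58 (SE 0.0964, adjusted p = 0.000361) in MUT in edgeR. PPP1CA, on the opposite strand with 11.03% of the exonic bases of RAD9A, gave 0.12 in WT and 0.28 in MUT, of which the second passed. RAD1, the clamp partner, gave 0.21 (SE 0.0694, adjusted p = 0.0361) and the clamp loader RAD17 0.29 (SE 0.0988, adjusted p = 0.0442) in untreated MUT against EV, with no pass in WT, where RAD1 gave -0.0039 and RAD17 0.22.

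XRCC2 had 33.7, 31.5 and 31.1 CPM in untreated EV, 23.5, 25.9 and 26.6 in WT and 25.1, 21.7 and 19.8 in MUT. Every EV library was above every library of the DNMT3A lines. Against EV, XRCC2 gave -0.34 (SE 0.109, adjusted p = 0.0472) in WT and -0.53 (SE 0.110, adjusted p = 0.00219) in MUT in edgeR. DNA2 was lower in untreated WT than in EV by -0.36 (SE 0.0955, adjusted p = 0.0169), and FANCE by -0.22 (SE 0.0697, adjusted p = 0.0482). In MUT, FANCE gave -0.20 (SE 0.0699, adjusted p = 0.0458), FANCC -0.22 (SE 0.0728, adjusted p = 0.0420) and XRCC1 0.26 (SE 0.0769, adjusted p = 0.0210) against EV in edgeR. EXO1 was higher in MUT than in WT by 0.26 (SE 0.0815, adjusted p = 0.0305), and ATM (-0.32), WRN (-0.28) and RECQL (-0.19) were lower in MUT than in WT.

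The untreated counts rested on few libraries. RAD9A and RFWD3 passed in every alternative for WT against EV, RAD9A, XRCC2 and RFWD3 did for MUT against EV, and none of the 8 did for MUT against WT. For WT against EV, 3 members passed without untreated EV replicate 1 or without WT replicate 2, and 2 without EV replicate 2, WT replicate 1 or WT replicate 3. For MUT against EV, 4 passed without EV replicate 1. For MUT against WT, 3 passed without any 1 of the WT replicates, and with the authors' factors 4 were higher and 4 lower in place of 2 and 6. With those factors 64.3% of all genes called were higher, in place of 55.11%. Fitting the 2 groups compared alone gave 15, 3 and 0 members. In the same fits 5101, 935 and 1171 of all genes passed, in place of 2125, 3632 and 3872. Calls were also gained. Without untreated MUT replicate 3, CLSPN (0.48), TIMELESS (0.25), TOPBP1 (0.24) and BRCA2 (0.33) passed against EV. Against WT, CLSPN (0.45), TIMELESS (0.20), BRCA1 (0.28), BRCA2 (0.31), RAD50 (0.22) and XRCC1 (0.32) did. Without untreated MUT replicate 2, FANCL (0.53), UBE2T (0.37), PALB2 (-0.42), SLX4 (-0.53) and MDC1 (-0.39) passed against EV.

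**Figure D4:**
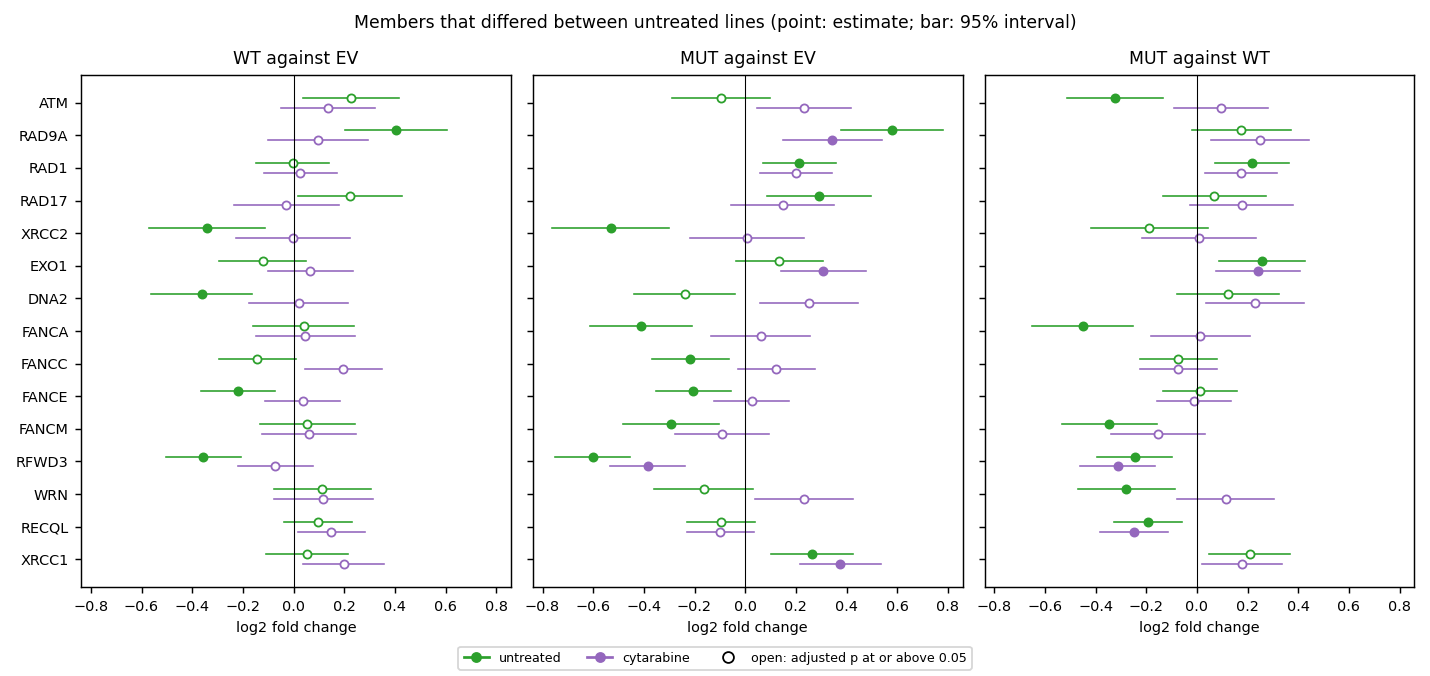
Log2 fold changes between lines for the 15 members that differed in an untreated comparison, without treatment (green) and with cytarabine (purple), with 95% intervals; filled points passed the adjusted p threshold. RFWD3 is below 0 in MUT against EV and against WT in both conditions, and FANCA in the untreated condition.

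With cytarabine, WT differed from EV in 6 members, against 16.5% of all genes, MUT from EV in 10, against 14.0%, and MUT from WT in 9, against 19.8%. In MUT against EV, 9 of the 10 were higher: BRCA2 (0.60), BARD1 (0.42), the resection factor RBBP8 (0.38), XRCC1 (0.38), RAD50 (0.37), RAD9A (0.34), EXO1 (0.31), BRIP1 (0.31) and TOPBP1 (0.28), with RFWD3 lower. Among all genes 6.85% were higher and 7.13% lower in that comparison. TOPBP1, RAD9A, EXO1 and BRIP1 did not pass in every alternative. S phase genes moved the same way: 15 of 26 were higher and 0 lower in treated MUT than in treated EV, with a median of 0.25. The shares of all genes are the same 6.85% and 7.13%. Their part in the members' values was not tested.

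In treated WT against EV, RBBP8 (0.44), ATRIP (0.35), RAD51C (0.25) and FANCI (0.20) were higher, and WEE1 (-0.47) and MRE11 (-0.27) lower. WEE1, RBBP8 and MRE11 passed in every alternative. Without treated EV replicate 3 or without any 1 of the treated WT replicates, 3 of these 6 passed. In treated MUT against WT, WEE1 (0.53), RAD50 (0.39), RAD54L (0.25), EXO1 (0.24) and ETAA1 (0.24) were higher, and ATRIP (-0.34), RAD51C (-0.31), RFWD3 (-0.31) and RECQL (-0.25) lower. Of these, WEE1, RAD51C, RAD50, RFWD3 and RECQL passed in every alternative. Without treated WT replicate 3, 5 members passed, and 20 did in a fit of those 2 groups alone. That fit called 6113 of all genes, in place of 3616.

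The tests of a difference in the cytarabine effect between lines passed for 0 of 55 members in edgeR, against 0.285% of all genes for WT minus EV, 0.214% for MUT minus EV and 1.00% for MUT minus WT. At an unadjusted p under 0.05 there were 9, 14 and 8 members, against 9.96%, 15.8% and 15.4% of all genes. DESeq2 called 0, 2 and 2 members: DNA2 and FANCA for MUT minus EV, and WEE1 and FANCA for MUT minus WT. DESeq2 also called more of all genes than edgeR, with 132, 487 and 795 in place of 52, 39 and 183. In the edgeR fit of all libraries, genes that passed in one line and not in another were thus not shown to differ between the lines.

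The closest was WEE1, whose effect in MUT exceeded that in WT by 0.47 (SE 0.125, adjusted p = 0.0714) in edgeR, with a 95% interval of 0.21 to 0.74. For WT minus EV, WEE1 gave -0.40 (SE 0.126, adjusted p = 0.257). FANCA gave 0.47 (SE 0.134, adjusted p = 0.0972) for MUT minus WT and 0.47 (SE 0.135, adjusted p = 0.120) for MUT minus EV, DNA2 0.49 (SE 0.133, adjusted p = 0.109) and XRCC2 0.54 (SE 0.154, adjusted p = 0.121) for MUT minus EV, all in edgeR. The MUT minus EV differences of FANCA and XRCC2 use the untreated libraries in which both genes were lower in MUT than in EV. For MUT minus EV, 43 of the 55 estimates were above 0, while all genes split evenly around 0, with a members' median of 0.13. For WT minus EV, 38 were above 0, with a members' median of 0.071, against 51.8% of all genes. Both differences use the same EV libraries. The 55 estimates of each difference share their libraries, so they are not independent. For MUT minus WT, 36 were above 0, with a members' median of 0.075, against 49.7% of all genes. Without untreated MUT replicate 3 these fell to 25 and -0.0047, against 46% of all genes, whose median was -0.027. Without untreated MUT replicate 1, XRCC2, DNA2, FANCA and BRIP1 passed for MUT minus EV, and ATM, WEE1 and FANCA for MUT minus WT, and without untreated MUT replicate 2 RAD51C passed for MUT minus WT.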

How the data were processed

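RNA of 18 U2OS libraries was sequenced. Per the labels' protocols, RNA was taken with a Direct-zol kit and libraries were made with an NEBNext Ultra kit, and the submitters' processing notes name CASAVA, STAR 2.6.1d and the hg38 build. The counting tool, its annotation and its handling of strand and of multiple matches are not given in the sources used here. The authors' deposited gene table holds estimated counts, not normalized, of which 70.4% were whole. Their deposited normalized signal equals 1 plus a library factor times the estimated count (largest relative deviation 7.29e-06) and was used only for those factors. Groups and replicate numbers come from the sample labels.

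After rounding to integers the estimated counts went into edgeR 4.0.16 (R 4.3.3), with filterByExpr (18226 genes), TMM factors, 1 quasi-likelihood fit of all 18 libraries with 6 group coefficients, F tests of 12 contrasts, and Benjamini-Hochberg adjustment over all tested genes, with a threshold of 0.05. Standard errors are the absolute log2 fold change over the square root of F, and 95% intervals use the fit's degrees of freedom. The common biological coefficient of variation was 0.104. Intervals and SDs cover the spread between cultures with counting error. Exonic lengths and overlaps are those of the canonical transcripts of GENCODE v44, and positions of all 55 members in the authors' table overlapped the gene there. The script was tested on simulated data. Replicate pairs all differed by more than sampling noise, with a chi-square per degree of freedom of at least 2.46.

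The members, the lists of other pathway, cell cycle and marker genes and the roles were chosen with earlier results of these data known. CPM in every library are printed for members with the 3 largest rises and falls past the threshold in each cytarabine effect, the largest rise and fall in each untreated line comparison, and 16 members named whatever their values. From each other list the 2 largest rises and falls by mean effect were named, and 1 further gene is not reported here. Of those lists 1 symbol was not matched. Alternatives were RLE (DESeq2) size factors, the authors' factors, no filter, a mean of at least 50 counts, a replicate block, a minimum fold change of 1.2, fits of the groups compared alone, DESeq2 1.42.0 and each library left out in turn. Figures were drawn with matplotlib 3.10.9 in Python 3.11.15.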

Additional observations from a re-analysis of the deposited data

How the results depend on the processing

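Of 124 calls on members, 55 passed in every alternative run, 69 were lost in at least 1, and 0 changed sign; the cause of a lost call was not tested. No paired design is given by the replicate numbers: same-numbered libraries deviated together with r between -0.176 and 0.352 (median -0.0159), and 6 of 18 libraries correlated best with their own number. With the replicate block, 3 members in place of 5 passed for WT against EV without treatment, and no other count of members moved by more than 1.5 times. With the authors' factors 4 members in place of 10 rose in EV and 18 in place of 11 fell in WT. The same factors left 45.22% and 46.85% of all genes called in EV and WT higher, in place of 53.22% and 53.58%. Against a minimum fold change of 1.2, the rises numbered 3 in EV, 4 in WT and 7 in MUT, and the falls in WT 6. Without the filter on low counts 3 members passed for untreated WT and EV and 6 for untreated MUT and EV. Fits of the groups compared alone gave 15 members for untreated WT and EV, 3 for MUT and EV and 0 for MUT and WT, 20 for MUT against WT treated, and 1 (WEE1) for the difference in effect WT minus EV. These fits called 5101, 935, 1171, 6113 and 278 of all genes, in the same order. For the differences MUT minus EV and MUT minus WT, DESeq2 gave 2 and 2 members, against 487 and 795 of all genes. A mean of at least 50 counts gave 1 (WEE1) for MUT minus WT, against 375 of all genes. Leaving out 1 library gave 6 to 8 members higher in EV, in untreated cells 2 to 5 for WT and EV, 4 to 13 for MUT and EV and 3 to 12 for MUT and WT, 3 to 6 for WT against EV and 5 to 7 for MUT against WT with treatment, and 0 to 4 and 0 to 3 for the differences MUT minus EV and MUT minus WT. Where this leaves 2 libraries in a group, they are assumed to vary like the other groups. With RLE factors 65.4% of all genes called for untreated MUT against WT were higher in MUT, in place of 55.1%. Depth limits the members of lowest count most, down to 63 counts in a library.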
